A study of Mus musculus with 8 samples.

Results

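The proteasome subunit genes are described here: every symbol in the deposited tables made of Psma, Psmb, Psmc or Psmd and a number, without the immunoproteasome genes Psmb8 and Psmb9. The set was chosen with earlier results of these data known. Its rule used names only and no measured value, and it found 36 genes among 16902 symbols. The 20S core had 16 of them (8 Psma and 8 Psmb genes) and the 19S cap 20 (6 Psmc and 14 Psmd genes). All but 1 had a mean of at least 10 normalised counts in either table and were tested. The exception was Psma8, the germ cell form of an alpha subunit, which had 5 and 5 reads in Ovol1 -/- epidermis under IMQ, 19 and 4 in Ovol1 +/+ epidermis under IMQ, 5 and 7 in untreated Ovol1 -/- epidermis and 6 and 2 in untreated Ovol1 +/- epidermis.

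The proteasome is the barrel-shaped protease that degrades proteins tagged with ubiquitin. Its 20S core stacks rings of alpha subunits, which gate the entry, on rings of beta subunits, of which Psmb5, Psmb6 and Psmb7 encode the cutting ones, and the 19S cap recognises, strips and unfolds the substrate with a ring of Psmc ATPases and a set of Psmd proteins. Interferon replaces the cutting subunits by inducible forms encoded by Psmb8, Psmb9 and Psmb10, which yields the immunoproteasome, and the transcription factor encoded by Nfe2l1 is known to raise the subunit genes together when proteasome activity falls short. Psmd5, Psmd9 and Psmd10 carry subunit names but encode chaperones that build the base of the cap and then leave it; by name they are counted with the cap.

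RNA was measured by sequencing polyadenylated RNA of back-skin epidermis from CD1 mice, freed from the dermis with dispase. The 4 groups were Ovol1 -/- mice treated with imiquimod (IMQ), Ovol1 +/+ controls treated with IMQ, untreated Ovol1 -/- mice and untreated Ovol1 +/- controls, so the control genotype differed between the treatments. Imiquimod is a Toll-like receptor agonist that, put on mouse skin, gives an inflammation resembling psoriasis, and Ovol1 encodes a zinc-finger transcription factor of epithelia. Each group had 2 libraries, 1 from a female and 1 from a male, and a p-value reflects the spread among these libraries only. The ages of the mice and the dose and duration of IMQ were not stated in the labels.

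The libraries held 28.6 to 43.1 M reads, and each tested proteasome gene had at least 336 reads in every library. Ovol1 itself was read in all 8 libraries, at 13457 and 13076 normalised counts in the Ovol1 -/- and 7635 and 9556 in the +/+ libraries under IMQ, and at 27433 and 26601 in the -/- and 16629 and 14582 in the +/- libraries untreated. It was higher in both -/- libraries than in both controls in each treatment. A table of 1 value per gene cannot show whether part of the gene is missing, so the -/- mice are called by their label throughout. Keratinocyte markers (8 genes, Krt5 and Krt14 among them) summed to 19244 and 25857 CPM (read counts brought to 1 library size with TMM) in the labelled -/- mice under IMQ, 26962 and 32220 in the IMQ controls, 26724 and 24588 in the untreated labelled -/- mice and 28837 and 26379 in the untreated controls. They were thus lower in the labelled -/- mice than in the controls under IMQ, without overlap. The list mixes basal genes (Krt5, Krt14, Trp63, Itga6) with differentiation genes (Krt1, Krt10, Dsg1a, Lor), so its sum is not a count of keratinocytes. Markers of dermal fibroblasts, of which none was at 0, summed to 61.5 and 1640 CPM in the labelled -/- mice under IMQ, 228 and 2564 in the IMQ controls, 49.4 and 493 in the untreated labelled -/- mice and 107 and 458 in the untreated controls. The second value in each pair is the male library, so the males carried more fibroblast RNA in every group.

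Both parts of the proteasome were higher under IMQ than without it, in the labelled -/- mice and in the controls (+/+ under IMQ, +/- untreated). The labelled -/- mice under IMQ stood highest. Summed over the 20S core, the level was 2534 and 2658 CPM in the labelled -/- mice under IMQ, 2098 and 2314 in the IMQ controls, 1312 and 1350 in the untreated labelled -/- mice and 1278 and 1413 in the untreated controls. Summed over the 19S cap, it was 3329 and 3427 CPM in the labelled -/- mice under IMQ, 2757 and 3005 in the IMQ controls, 1831 and 1902 in the untreated labelled -/- mice and 1816 and 1913 in the untreated controls. All 4 IMQ libraries lay above all 4 untreated ones in both parts, the labelled -/- mice lay above the controls under IMQ, and the genotypes overlapped when untreated. In epidermis taken whole, fewer cells of a type and less RNA per cell cannot be told apart, so these are levels within a library and not per cell.

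**Figure D1:**
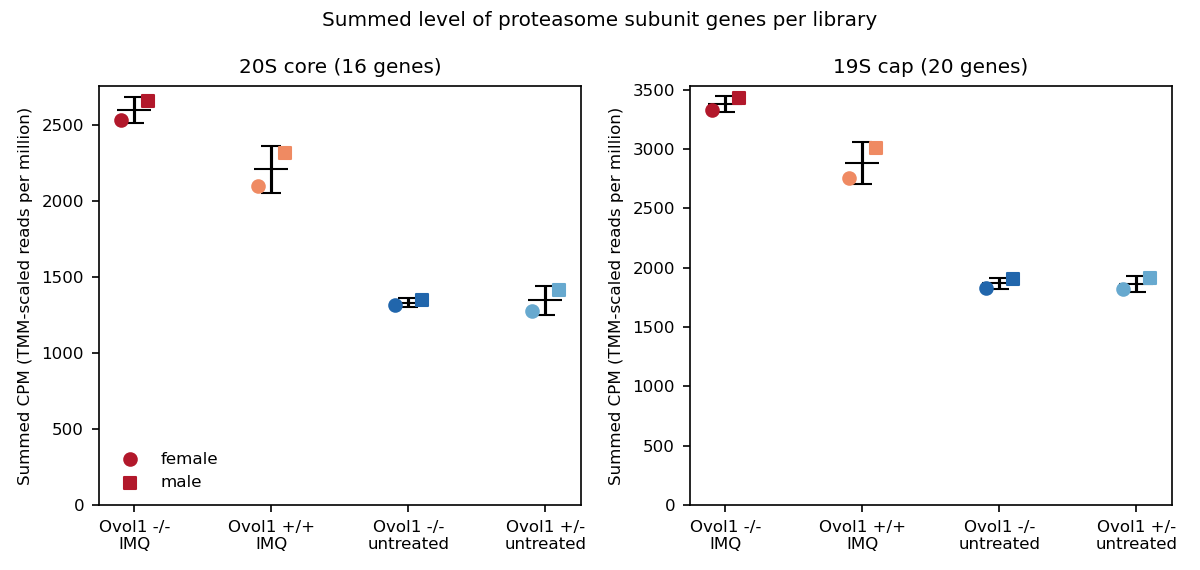
Summed level of the 16 genes of the 20S core (left) and the 20 genes of the 19S cap (right) in each library, in TMM-scaled CPM, with the mean and SD of 2 libraries per group (circle female, square male). The core averaged 2596 ± 87.4 CPM in the labelled -/- mice and 2206 ± 153 in the controls under IMQ, against 1331 ± 27.1 in the labelled -/- mice and 1345 ± 94.8 in the controls untreated.

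As a share of all reads, the 36 genes took 0.581% and 0.573% in the labelled -/- mice under IMQ, 0.488% and 0.502% in the IMQ controls, 0.326% and 0.344% in the untreated labelled -/- mice and 0.310% and 0.342% in the untreated controls. The proportion of core to cap varied little between libraries. The ratio of the core sum to the cap sum was 0.761 and 0.776 in the labelled -/- mice under IMQ, 0.761 and 0.770 in the IMQ controls, 0.717 and 0.710 in the untreated labelled -/- mice and 0.704 and 0.739 in the untreated controls. It did not separate the genotypes in either treatment and was a little higher, without overlap, in the IMQ libraries than in the untreated ones.

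For IMQ against untreated epidermis no test was made, because the deposited tables were scaled apart. The log2(CPM + 0.5) from the recovered reads is compared as a description. In the controls this sets +/+ mice under IMQ against untreated +/- mice, so treatment and control genotype cannot be told apart there. In the labelled -/- mice all 15 tested core genes were higher under IMQ, with a median log2 difference of 0.99 and a range of 0.44 to 1.23. All 20 cap genes were higher too, with a median of 0.87 and a range of 0.03 to 1.36. The libraries of the groups did not overlap for 14 core and 19 cap genes, where 39.9% of the 14614 genes tested were higher without overlap and 40.1% lower, and 49.3% of all genes lay above 0, with a median of -0.01. In the controls the core had a median of 0.79, with 15 of 15 genes higher (0.45 to 0.92), and the cap a median of 0.67, with 19 of 20 higher (-0.12 to 1.01). There 15 core and 17 cap genes were higher without overlap, against 35.3% of all genes higher and 32.3% lower, with 51.5% above 0 and an overall median of 0.02.

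Scaling set the size but not the direction of these medians. In the deposited values as they stand, the median of all genes lies at -0.32 in the labelled -/- mice and -0.26 in the controls, and the core medians were 0.69 in the labelled -/- mice and 0.52 in the controls. Females and males gave like values: the core median was 0.97 in the females and 1.01 in the males of the labelled -/- mice, and 0.76 in both sexes of the controls.

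**Figure D2:**
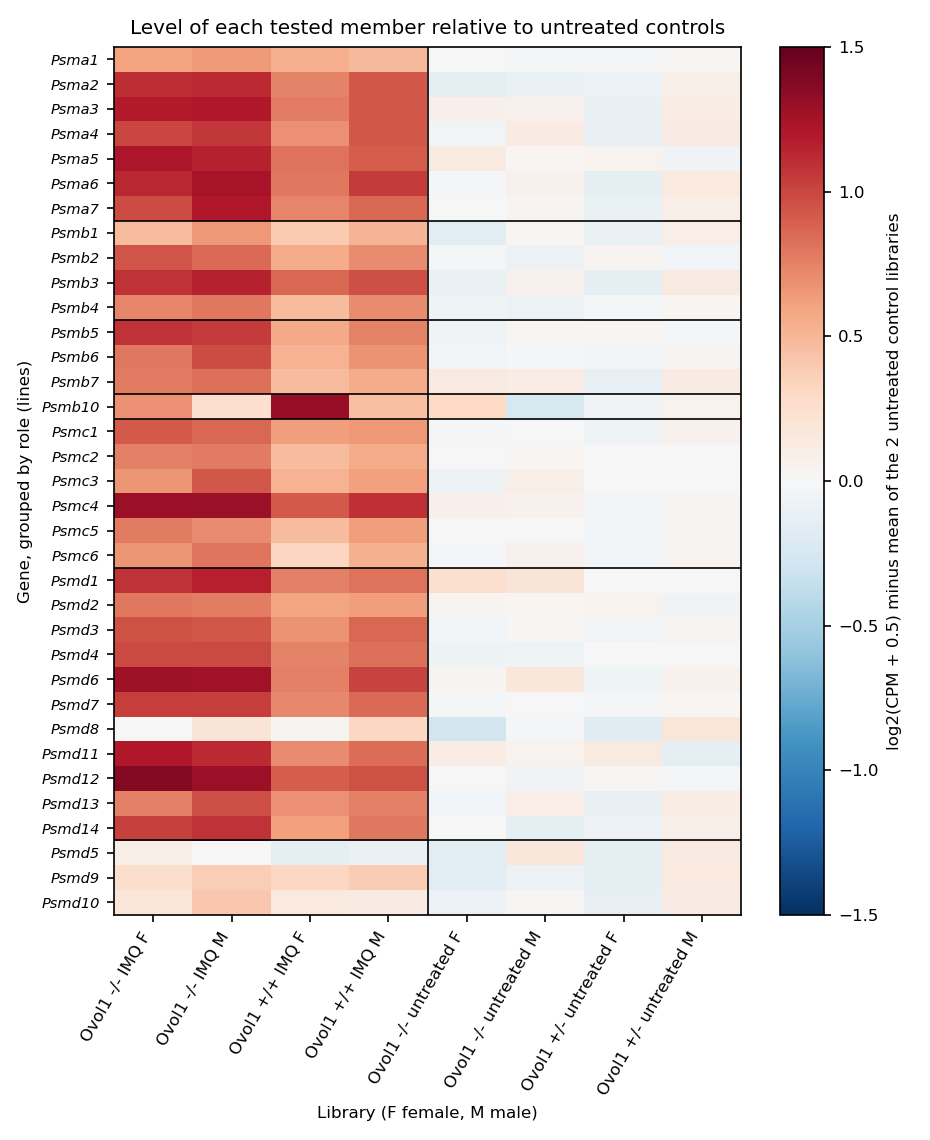
Level of each of the 35 tested genes (rows, grouped by role) in each of the 8 libraries (columns, IMQ left of the line and untreated right), as log2(CPM + 0.5) minus the mean of the 2 untreated control libraries. Nearly all rows are red in the 4 IMQ libraries and deepest in the labelled -/- mice, while Psmd8 and the chaperone genes Psmd5, Psmd9 and Psmd10 stay pale and Psmb10 is deepest in the female IMQ control.

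Within the core, the alpha ring genes had a larger median difference than the structural beta and the constitutive cutting subunit genes. The ranges of single genes crossed between these roles. The 7 tested genes had a median of 1.11 in the labelled -/- mice (0.63 to 1.23) and 0.84 in the controls (0.51 to 0.92), and none overlapped in either genotype. Psma2 had the widest difference of the core: 250 and 252 CPM in the labelled -/- mice under IMQ against 105 and 109 untreated, a 2.35-fold difference. In the controls Psma2 was at 195 and 221 CPM under IMQ and 109 and 124 untreated, 1.78-fold apart. Psma6 was at 244 and 264 CPM in the labelled -/- mice under IMQ against 110 and 117 untreated, and at 193 and 231 CPM in the controls under IMQ against 100 and 124 untreated. In both alpha subunit genes the 4 IMQ libraries lay well clear of the untreated ones.

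The structural beta genes Psmb1, Psmb2, Psmb3 and Psmb4, whose products cut nothing themselves, had a median of 0.90 in the labelled -/- mice and 0.62 in the controls. Psmb3 was the widest of them in the controls, at 140 and 150 CPM under IMQ against 70.1 and 84.6 untreated. The 3 constitutive cutting subunit genes had a median of 0.92 in the labelled -/- mice (0.68 to 1.09) and 0.59 in the controls (0.51 to 0.66). Psmb5, which encodes the chymotrypsin-like subunit, was at 44.1 and 42.8 CPM in the labelled -/- mice under IMQ against 19.8 and 20.7 untreated, and at 30.6 and 34.6 in the controls under IMQ against 20.9 and 20.04 untreated. Psmb6, the caspase-like subunit gene, was at 191 and 219 CPM in the labelled -/- mice under IMQ against 107 and 108 untreated, and at 158 and 176 in the controls under IMQ against 107 and 113 untreated. Psmb7, the trypsin-like subunit gene, was at 90.4 and 93.7 CPM in the labelled -/- mice under IMQ against 57.6 and 56.8 untreated, and at 73.2 and 77.2 in the controls under IMQ against 48.1 and 57.3 untreated. For all 3 the IMQ libraries lay above the untreated ones, and the fold was smallest for Psmb7, 1.60 in the labelled -/- mice and 1.43 in the controls.

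In the cap, the 6 ATPase genes had a median of 0.77 in the labelled -/- mice (0.71 to 1.22) and 0.56 in the controls (0.43 to 1.01). Psmc4 led them, at 158 and 159 CPM in the labelled -/- mice under IMQ against 68.1 and 67.3 untreated, and at 123 and 138 in the controls under IMQ against 62.5 and 66.6 untreated. It was the gene past a 2-fold difference in the controls, where 0 core genes and 1 cap gene passed it, while 7 core and 7 cap genes passed it in the labelled -/- mice. Of the 35 tested members, 14 thus passed it in the labelled -/- mice and 1 in the controls. Of all 14614 genes tested, 1716 passed it upwards in the labelled -/- mice and 1138 in the controls.

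The 11 non-ATPase subunit genes of the cap had a median of 1.05 in the labelled -/- mice (0.25 to 1.36) and 0.77 in the controls (0.18 to 0.93). Psmd12, a scaffold subunit of the lid, had the widest difference of all tested members: 172 and 161 CPM in the labelled -/- mice under IMQ against 65.3 and 63.6 untreated, 2.58-fold. In the controls Psmd12 was at 124 and 128 CPM under IMQ against 66.9 and 64.8 untreated, 1.91-fold. Psmd14, the deubiquitinase that removes the ubiquitin chain, was at 148 and 155 CPM in the labelled -/- mice under IMQ against 73.2 and 66.4 untreated, and at 111 and 127 in the controls under IMQ against 68.3 and 77.6 untreated. Psmd6, another lid subunit gene, was at 152 and 152 CPM in the labelled -/- mice under IMQ against 64.8 and 70.9 untreated, and at 107 and 128 in the controls under IMQ against 59.99 and 65.9 untreated. None of these 3 genes overlapped between IMQ and untreated libraries in either genotype.

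Psmd8, also of the lid, differed least among the true subunits. Its level was 207 and 236 CPM in the labelled -/- mice under IMQ against 170 and 202 untreated, and 213 and 257 in the controls under IMQ against 182 and 234 untreated, where the groups overlapped. The 3 cap chaperone genes had a median difference of 0.33 in the labelled -/- mice and 0.14 in the controls. Psmd5 was at 24.2 and 22.8 CPM in the labelled -/- mice under IMQ against 20.5 and 25.8 untreated, and at 20.6 and 21.2 in the controls under IMQ against 20.8 and 25.1 untreated, overlapping in both genotypes. Psmd9 was at 24.2 and 26.1 CPM in the labelled -/- mice under IMQ against 17.8 and 18.9 untreated, and at 24.97 and 26.4 in the controls under IMQ against 18.1 and 22.3 untreated, with no overlap. Psmd10, which encodes gankyrin, differed by 0.33 in the labelled -/- mice and 0.14 in the controls, and overlapped in the controls. Without these 3 chaperone genes the cap had a median of 0.91 in the labelled -/- mice and 0.72 in the controls.

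The difference between IMQ and untreated epidermis was larger in the labelled -/- mice than in the controls for 14 of 15 core genes and 20 of 20 cap genes, where 49.9% of all genes tested lay on that side. The median excess over the controls was 0.25 for the core and 0.22 for the cap on the log2 scale. The controls were +/+ under IMQ and +/- untreated, so treatment and control genotype cannot be told apart in this excess. That share covers genes raised and genes lowered under IMQ alike. Over all genes tested the median excess was -0.0012, though more passed a 2-fold rise in the labelled -/- mice (1716) than in the controls (1138). The genes of the CCT chaperonin, a folding machine described below, also had a larger IMQ difference in the labelled -/- mice. A larger rise was thus not particular to the members. The members were not compared with genes matched for their rise under IMQ. Members of 1 complex share the libraries, so such counts are not counts of independent results. Psmb10 was the core gene on the other side.

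**Figure D3:**
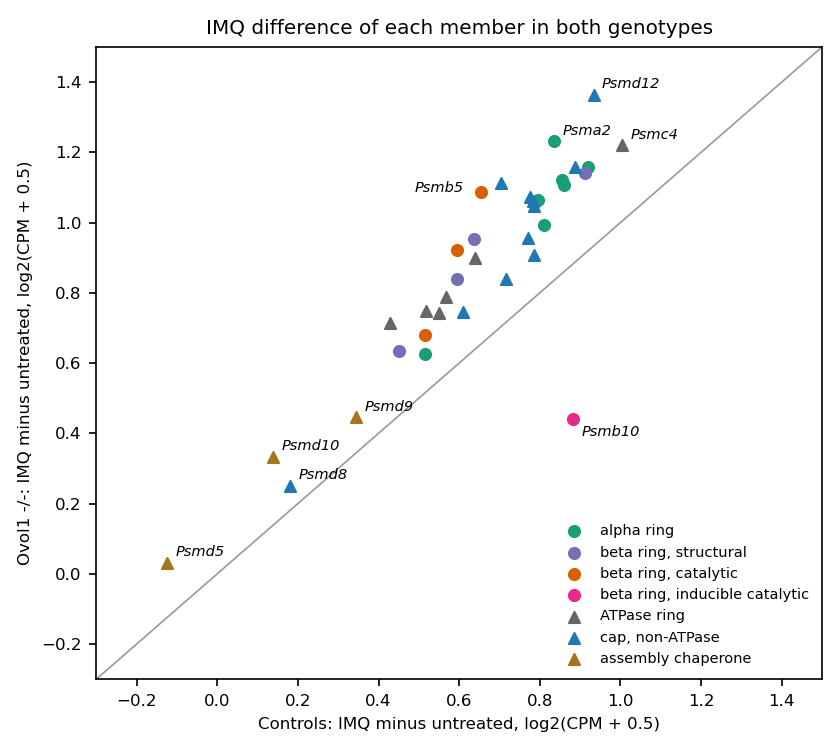
IMQ minus untreated log2(CPM + 0.5) of each tested gene in the labelled -/- mice (vertical axis) against that in the controls (horizontal axis), colored by role (circles core, triangles cap), with the line of equal differences. All points but Psmb10 lie above the line; Psmd12 stands highest and Psmd5 lowest.

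The effect of genotype was tested with limma within each table on the deposited normalised counts. Under IMQ, 14 of 15 core genes had a positive log2 fold change of labelled -/- against control (median 0.27, range -0.43 to 0.42), as had 18 of 20 cap genes (median 0.24, range -0.08 to 0.40), against 48.7% of all genes. The libraries did not overlap for 13 core and 18 cap genes, all higher in the labelled -/- mice, against 26.6% of all genes tested higher without overlap and 26.4% lower. No member passed an adjusted p of 0.05 in limma, which called 0.157% of all genes higher and 0.281% lower. At an unadjusted p under 0.05 there were 6 core and 10 cap genes, all higher, where 10% of all genes were higher and 11.9% lower. The edgeR test called 0 members, and DESeq2 called 1 core and 2 cap genes, where it called 4% of all genes higher.

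The core and cap medians were above 0 in both sexes. The core median was 0.32 between the females and 0.17 between the males, and the cap median 0.31 between the females and 0.20 between the males. The female IMQ control was the lowest of the 4 IMQ libraries in both sums, and without it the medians were 0.18 for the core and 0.17 for the cap.

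Psmd12 had the smallest p of the cap. Its normalised counts were 5325 and 4917 in the labelled -/- mice under IMQ against 3795 and 3941 in the IMQ controls, with no overlap. The log2 fold change was 0.40 (SE 0.10, limma adjusted p = 0.105), and it passed the threshold in DESeq2 (adjusted p = 0.0129). Psmb5 had the smallest p of the core. Its normalised counts were 1362 and 1306 in the labelled -/- mice under IMQ against 933 and 1065 in the IMQ controls, with no overlap. The log2 fold change was 0.42 (SE 0.12, limma adjusted p = 0.129), and DESeq2 gave an adjusted p of 0.0440. Psmd1, a large scaffold subunit of the base of the cap, was at 5921 and 6207 normalised counts in the labelled -/- mice under IMQ against 4664 and 4888 in the IMQ controls. Its log2 fold change was 0.34 (SE 0.10, limma adjusted p = 0.128; DESeq2 adjusted p = 0.0237).

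Psmd11, a lid scaffold subunit gene, had 4832 and 4515 normalised counts in the labelled -/- mice under IMQ against 3407 and 3746 in the IMQ controls (log2 fold change 0.39, SE 0.13, limma adjusted p = 0.156). Psma3 of the alpha ring had 7198 and 7155 against 5326 and 6033 in the same groups (0.34, SE 0.12, limma adjusted p = 0.173). Psmd14 had 4583 and 4712 in the labelled -/- mice and 3398 and 3906 in the controls under IMQ (0.35, SE 0.12, limma adjusted p = 0.171). In all 3 genes both labelled -/- libraries lay above both control libraries. Psmb6 and Psmb7 each had a log2 fold change of 0.29 with no overlap, with limma adjusted p of 0.205 and 0.213 in that order. The 6 ATPase genes lay between 0.20 and 0.30, close to one another, and none overlapped.

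The members below 0 under IMQ were Psmb10, Psmd8 and Psmd9. Psmb10 had 548 and 397 normalised counts in the labelled -/- mice against 847 and 465 in the controls (log2 fold change -0.43, SE 0.32, limma adjusted p = 0.460). The groups overlapped, and the female control alone was far above the other 3 libraries: without it the log2 fold change was 0.0059. Psmd8 was at -0.08 (SE 0.17, limma adjusted p = 0.817) and Psmd9 at -0.03 (SE 0.14, limma adjusted p = 0.934), both with overlapping groups.

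**Figure D4:**
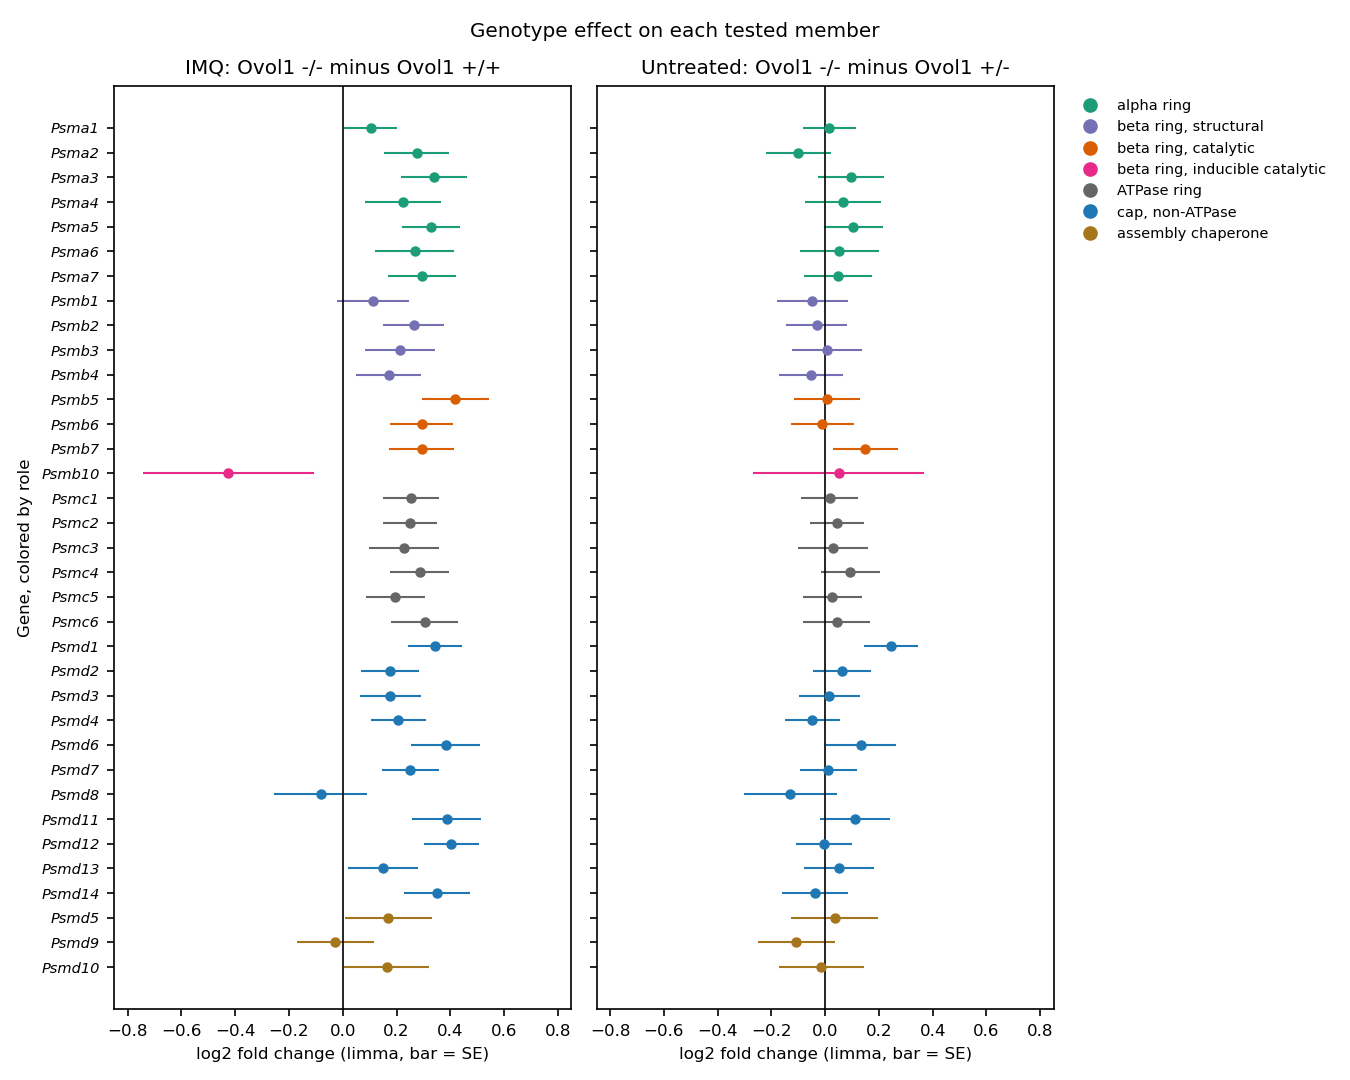
Log2 fold change of labelled -/- against control for each tested gene, under IMQ (left) and untreated (right), with its SE from limma (2 libraries per group), colored by role. Under IMQ all but Psmb10, Psmd8 and Psmd9 lie right of 0, most of them between 0.10 and 0.42, while the untreated values scatter on both sides of 0 between -0.13 and 0.25.

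Without treatment the genotype values lay nearer to 0. The core had a median log2 fold change of 0.016 (-0.10 to 0.15) with 10 of 15 genes above 0, and the cap 0.029 (-0.13 to 0.25) with 14 of 20, where 49.5% of all genes lay above 0. In the core 1 gene was higher and 1 lower without overlap, in the cap 5 were higher and 1 lower, against 17.4% of all genes higher and 16.4% lower. No member passed the threshold in limma, edgeR or DESeq2, and limma called 0% of all genes. The gene at an unadjusted p under 0.05, where 2.79% of all genes were higher and 1.67% lower, was Psmd1. It had 4039 and 3931 normalised counts in the untreated labelled -/- mice against 3379 and 3339 in the untreated controls, with no overlap. Its log2 fold change was 0.25 (SE 0.10), and limma gave an unadjusted p of 0.0423 and an adjusted p of 1.00.

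Psmd1 thus lay higher in the labelled -/- mice in both treatments, in the female pair (0.34 under IMQ and 0.26 untreated) and in the male pair (0.34 and 0.24). Psmb7 was the core gene higher without overlap, with 2180 and 2161 normalised counts in the untreated labelled -/- mice against 1795 and 2131 in the untreated controls (0.15, SE 0.12, limma adjusted p = 1.00). Psmb4 was the core gene that was lower without overlap, with 5355 and 5312 in the labelled -/- mice against 5413 and 5645 in the controls. At the other end of the range were Psma2 at -0.10 in the core and Psmd8 at -0.13 in the cap, both with overlapping groups.

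The difference of the genotype effects, IMQ minus untreated, restates the excess of the IMQ difference given above, here from the deposited counts. It was above 0 for 14 of 15 core genes (median 0.22, range -0.48 to 0.41) and for 20 of 20 cap genes (median 0.19, range 0.05 to 0.41), against 47.3% of all genes. No member passed the threshold for it in limma, edgeR or DESeq2; the lowest limma adjusted p was 0.493 in the core, for Psmb5, and 0.476 in the cap, for Psmd12. Those were the members at an unadjusted p under 0.05, where 4.05% of all genes were higher and 6.02% lower. Both had a difference of 0.41, with an SE of 0.18 for Psmb5 and 0.15 for Psmd12. Since the controls were +/+ under IMQ and +/- untreated, the treatment and the control genotype cannot be told apart in this difference.

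Of the promoters in the RefSeq table (GRCm38.p6, 250 bases before to 50 after each start), 31 windows of 29 members were at hand. They were searched on both strands for TGACNNNGC, the core of the antioxidant response element at which NFE2L1 and NFE2L2 bind, because it is known from proteasome gene promoters. It stood in 5 of 31 windows (16.1%), of Psmb5, Psmb6, Psmc6, Psmd12 and Psmd9, against 14.1% of 14556 windows of the genes tested. The CCAAT box, the letters CCAAT, stood in 35.5% of the members' windows against 37.1% of all, and TGANTCA, the AP-1 site, in 6.45% against 5.98%; TGANTCA can share bases with the first motif. The stretch around the match is shown for the genes with the smallest p of the core and of the cap under IMQ, Psmb5 and Psmd12, for the core gene with the highest level per length, Psmb6, and for Psmd9, which has the motif and a small IMQ difference. Each is written 5′ to 3′ on the strand of its gene, with the match in capitals; in Psmd12 it reads on the opposite strand. The stretches lie at chr14:54617998-54618077 (minus strand) for Psmb5, chr11:70525277-70525356 (plus) for Psmb6, chr11:107479278-107479357 (plus) for Psmd12 and chr5:123228110-123228189 (plus) for Psmd9.
Psmb5: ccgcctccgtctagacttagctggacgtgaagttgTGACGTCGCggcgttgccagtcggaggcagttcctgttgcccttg
Psmb6: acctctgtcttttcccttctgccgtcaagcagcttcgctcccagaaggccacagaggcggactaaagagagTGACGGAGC
Psmd12: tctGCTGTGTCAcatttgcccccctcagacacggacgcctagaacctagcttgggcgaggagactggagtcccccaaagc
Psmd9: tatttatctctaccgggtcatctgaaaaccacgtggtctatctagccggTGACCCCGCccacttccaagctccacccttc

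The match began 47 bases before the start in Psmb5, 9 before it in Psmb6, 247 before it in Psmd12 and 31 before it in Psmd9. The genotype values under IMQ of genes with the motif ranged widely. Psmb5 and Psmd12 had the highest of the core and of the cap, Psmb6 and Psmc6 lay between, and Psmd9 lay below 0. The share of members' windows with the motif (16.1%) was near that of all genes tested (14.1%). A match is a run of letters and not a measured binding site, and no binding was measured in these libraries.

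Levels can be compared between genes only per length, here CPM per kilobase of the principal transcript in GENCODE vM21. In the core, Psmb6 was highest, at 257 CPM per kilobase in the labelled -/- mice and 209 in the controls under IMQ, and at 135 in the labelled -/- mice and 138 in the controls untreated. Of the tested core genes Psmb10 was lowest, at 11.7 in the labelled -/- mice and 16.3 in the controls under IMQ, and at 8.61 in the labelled -/- mice and 8.31 in the controls untreated. Of the cutting subunit genes Psmb5 was far below Psmb6, at 48.4 CPM per kilobase in the labelled -/- mice and 36.2 in the controls under IMQ, and at 22.5 in the labelled -/- mice and 22.8 in the controls untreated. In the cap, Psmd8 was highest in 3 of the 4 groups, at 144 CPM per kilobase in the labelled -/- mice and 153 in the controls under IMQ, and at 121 in the labelled -/- mice and 135 in the controls untreated. Psmd4, the gene of a ubiquitin receptor, was above it in the labelled -/- mice under IMQ, at 155, and was chosen for mention after its values were seen. Psmd5 was lowest in every group, between 4.76 and 5.35. The order of the members changed little with IMQ: the rank correlation over members of the levels under IMQ and untreated was 0.93 in the labelled -/- mice and 0.94 in the controls for the 15 core genes, and 0.94 in the labelled -/- mice and 0.95 in the controls for the 20 cap genes, a description over genes that share libraries and lengths.

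Of the inducible cutting subunit genes, Psmb8 and Psmb10 were higher under IMQ without overlap in the controls but overlapped in the labelled -/- mice, and Psmb9 overlapped in both genotypes. Psmb8, left out by the rule, was at 39.3 and 31.6 CPM in the labelled -/- mice under IMQ, 55.7 and 36.4 in the IMQ controls, 35.9 and 30.7 in the untreated labelled -/- mice and 35.8 and 34.8 in the untreated controls. Psmb9 was at 23.5 and 16.3 CPM in the labelled -/- mice under IMQ, 37.4 and 18.8 in the IMQ controls, 30.4 and 22.9 in the untreated labelled -/- mice and 25.6 and 31.0 in the untreated controls. Psmb10 was at 17.7 and 13.0 CPM in the labelled -/- mice under IMQ, 27.8 and 15.1 in the IMQ controls, 13.5 and 9.11 in the untreated labelled -/- mice and 10.4 and 11.3 in the untreated controls. In all 3 genes the female IMQ control was the highest of the 8 libraries, and the labelled -/- mice overlapped the controls under IMQ. That library also stood apart in markers of other cells. Its Langerhans and dendritic cell list (5 genes, Cd74 and the class II genes among them) summed to 4224 CPM, against 1434 to 2601 in the other 7 libraries. Its melanocyte list (3 genes) summed to 78.4 CPM against 13.8 to 25.2 in the others, and its endothelium list (3 genes) to 14.2 against 0.46 to 2.15. The part of these cells in the values of Psmb8, Psmb9 and Psmb10 was not tested.

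Under IMQ the log2 fold change of labelled -/- against control was -0.35 for Psmb8 (SE 0.21, limma adjusted p = 0.368) and -0.43 for Psmb9 (SE 0.33, limma adjusted p = 0.475). The log2 ratio of Psmb8 to Psmb5, set to 0 at the mean of the untreated controls, was -0.95 and -1.23 in the labelled -/- mice under IMQ and 0.08 and -0.71 in the IMQ controls. That of Psmb9 to Psmb6 was -1.05 and -1.77 in the labelled -/- mice under IMQ and -0.11 and -1.26 in the IMQ controls. That of Psmb10 to Psmb7 was -0.08 and -0.57 in the labelled -/- mice under IMQ and 0.87 and -0.09 in the IMQ controls. Under IMQ the labelled -/- mice lay below their control of the same sex in all 3 ratios, and for the last 2 the genotypes overlapped. Untreated, in the same order, the labelled -/- female was at 0.07, 0.15 and 0.17 and the male at -0.21, -0.27 and -0.37. The control female was at -0.01, -0.10 and 0.07 and the male at 0.01, 0.10 and -0.07. Psmb5, Psmb6 and Psmb7 were themselves higher in the labelled -/- mice under IMQ, so the ratios partly restate that. The ratios were not tested.

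**Figure D5:**
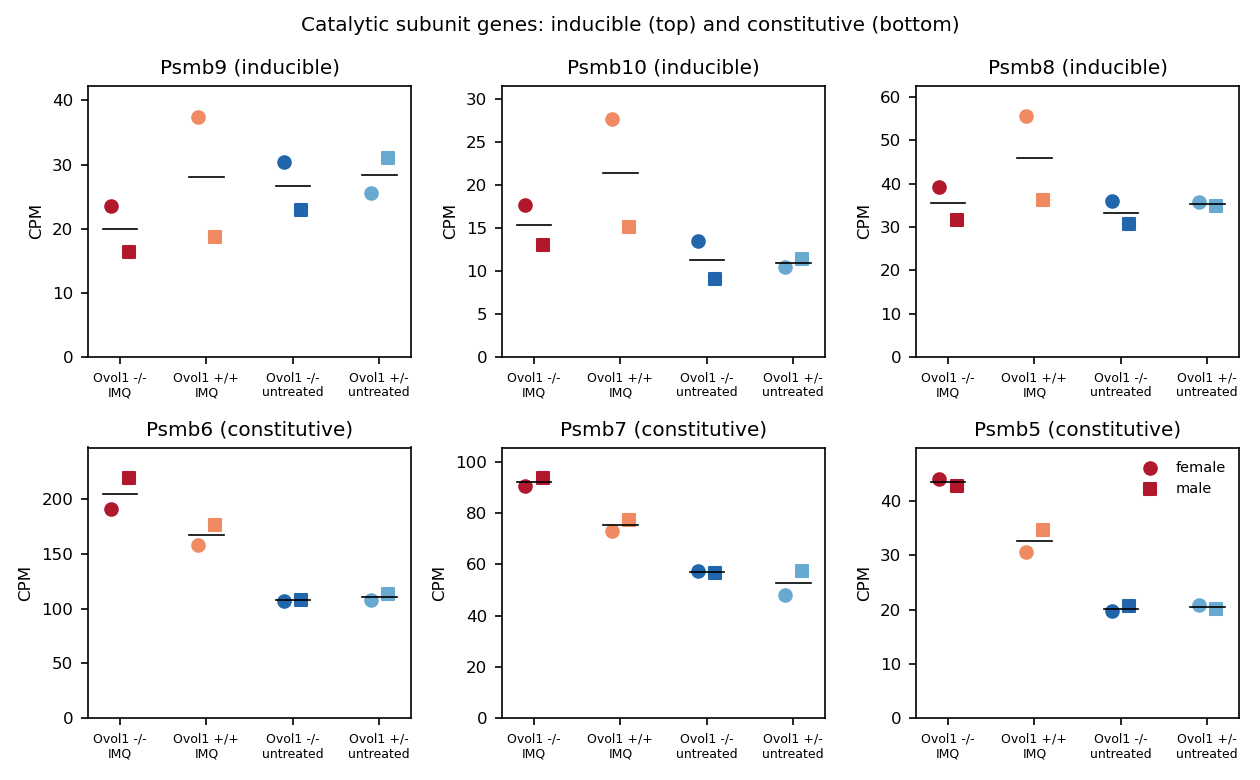
CPM of the 3 inducible (top) and 3 constitutive (bottom) cutting subunit genes in each library (circle female, square male, line the mean of 2 libraries). Psmb5, Psmb6 and Psmb7 are highest in the labelled -/- mice under IMQ, while Psmb8, Psmb9 and Psmb10 are highest in the female IMQ control.

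The interferon response list of 16 genes summed to 600 and 403 CPM in the labelled -/- mice under IMQ, 1229 and 633 in the IMQ controls, 301 and 211 in the untreated labelled -/- mice and 274 and 329 in the untreated controls. The female IMQ control was thus also the highest library in that list. Under IMQ the list had 0 of 16 genes above 0 in labelled -/- against control, where 48.7% of all genes lay above 0. Its median was -1.08 with the female IMQ control included, and limma called 0 of its genes. The part of the interferon genes in the values of Psmb8, Psmb9 and Psmb10 was not tested.

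Of the activators, Psme3, which encodes the nuclear ring-shaped activator PA28 gamma, was at 243 and 225 CPM in the labelled -/- mice under IMQ, 167 and 183 in the IMQ controls, 86.7 and 88.6 in the untreated labelled -/- mice and 104 and 83.3 in the untreated controls. Its log2 fold change under IMQ was 0.42 (SE 0.14, limma adjusted p = 0.155), with no overlap. Psme1 and Psme2, the interferon-inducible PA28 subunit genes, had IMQ differences of 0.59 and 0.51 in the labelled -/- mice and 0.58 and 0.57 in the controls, and genotype effects under IMQ of 0.09 (SE 0.12, limma adjusted p = 0.686) and 0.04 (SE 0.11, limma adjusted p = 0.857). Psme4, the gene of the activator PA200, had IMQ differences of 0.19 in the labelled -/- mice and 0.28 in the controls.

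Pomp, which encodes the chaperone that closes the core, was at 137 and 146 CPM in the labelled -/- mice under IMQ, 120 and 124 in the IMQ controls, 86.6 and 93.3 in the untreated labelled -/- mice and 77.99 and 85.2 in the untreated controls (log2 fold change under IMQ 0.22, SE 0.11, limma adjusted p = 0.287). It lay higher in the labelled -/- mice, without overlap, in both treatments. Of the 8 assembly chaperone genes tested, 7 lay above 0 in labelled -/- against control under IMQ (median 0.27), as did 11 of the 13 genes of receptors and enzymes bound to the proteasome (median 0.22). The 8 genes of the CCT chaperonin, a folding machine that is no part of the proteasome, lay above 0 in 8 of 8 with a median of 0.40, and had IMQ differences of 1.16 in the labelled -/- mice and 0.74 in the controls. Limma called 0 genes of these lists; at an unadjusted p under 0.05 there were 1 of 8, 2 of 13 and 6 of 8, all higher, against the 10% of all genes higher given above.

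For regulators of the proteasome genes only RNA was measured, and their part in the proteasome values was not tested. Nfe2l1 was lower in the labelled -/- mice than in the controls under IMQ. It was at 302 and 383 CPM in the labelled -/- mice under IMQ, 423 and 443 in the IMQ controls, 508 and 481 in the untreated labelled -/- mice and 461 and 470 in the untreated controls. Its log2 fold change under IMQ was -0.35 (SE 0.14, limma adjusted p = 0.205), with no overlap. Nfe2l2, its relative of the oxidative stress response, named after its values were seen, was at 231 and 176 CPM in the labelled -/- mice under IMQ, 113 and 130 in the IMQ controls, 116 and 107 in the untreated labelled -/- mice and 117 and 84.9 in the untreated controls. Its log2 fold change under IMQ was 0.74 (SE 0.20, limma adjusted p = 0.113). Of the 12 listed regulators of proteasome gene transcription, 7 lay above 0 under IMQ, with a median of 0.14, and 0 were called by limma (4 at an unadjusted p under 0.05, 2 in each direction, against 10% of all genes higher and 11.9% lower).

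Other measures differed between the same libraries. Of the neutrophil list of 6 genes, 5 were in the tables, and they summed to 473 and 424 CPM in the labelled -/- mice under IMQ, 40.3 and 237 in the IMQ controls, 11.8 and 13.0 in the untreated labelled -/- mice and 3.93 and 13.0 in the untreated controls. S100a8 and S100a9, which inflamed keratinocytes express too, made up nearly all of it under IMQ, while Csf3r stayed between 0.16 and 0.82 CPM there. The macrophage list of 4 genes summed to 101 and 121 CPM in the labelled -/- mice under IMQ, 193 and 113 in the IMQ controls, 76.9 and 59.5 in the untreated labelled -/- mice and 76.2 and 53.7 in the untreated controls, with 0 of 4 genes above 0 in the genotype contrast under IMQ. The proliferation list of 15 genes summed to 330 and 376 CPM in the labelled -/- mice and 410 and 413 in the controls under IMQ, and to 437 and 330 in the labelled -/- mice and 437 and 368 in the controls untreated. The part of these genes, of the keratinocyte markers, of the fibroblast RNA and of the cell makeup in the proteasome values was not tested.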

How the data were processed

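The values analysed were made by the authors: per the submitters' processing notes, reads were processed with STAR 2.5.2a and Trimmomatic 0.35 on mm10, with R 3.6.1 and DESeq2 1.24.0, while no source used here gives the read counter, annotation or gene filter. The deposited values are a signal, normalised counts in 2 tables (untreated and IMQ) of 16902 symbols, each scaled by itself with 1 factor per library. Dividing by each library's step gave whole reads for 100% of values within 0.001. Whether reads of pseudogene copies were kept out is not known.

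Genotype was tested with limma 3.58.1 (trend, robust; R 4.3.3) on log2(value + 1), 4 group means over 8 libraries, for 14614 genes averaging 10 or more in the 4 libraries of 1 table or the other, with Benjamini-Hochberg adjustment and a threshold of 0.05. IMQ was set against untreated without a test, from recovered reads turned into CPM (TMM factors, edgeR 4.0.16) plus 0.5. Tests were also tried on simulated data with the same dispersion for all genes and no effect of sex, unlike these libraries. No result given here rests on that trial. Replicate 1 was female and 2 male, and libraries of like sex deviated together from their group means (r = 0.145 to 0.463 over genes). The tests in the Results did not pair the sexes, so their p-values and SEs leave this out. Values of the female and male pairs are given as a description, and a replicate block was tried as an alternative. Other alternatives were pseudocounts of 0.5 and 5, no filter or one of 50, TMM or quantile scaling, edgeR and DESeq2 1.42.0 on recovered reads, and each library left out. Gene positions came from GENCODE vM21 (GRCm38), which held 16745 of the symbols and all 36 members; promoters came from RefSeq.

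Members and lists were chosen with earlier results of these data known. Genes were named if they encode cutting subunits or Psmd14, had the 2 largest positive or negative values per complex in a comparison, were highest or lowest per length, or failed the filter; Psmd4, Psmd10 and Nfe2l2 were named after their values were seen. Listed symbols not found in the tables (Paaf1, Trdc, Trac and Ly6g) were left out.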

Additional observations from a re-analysis of the deposited data

How the results depend on the processing

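The number of genes called moved with the tool, the block and the library left out. Untreated, limma called 0 genes, but 5 with a pseudocount of 5, 8 with the replicate block, 6 in edgeR with the block, 89 in DESeq2 and 0 to 2 with a library left out. Under IMQ it called 64, but 358 with the replicate block, 30 in edgeR, 282 in edgeR with the block, 1242 in DESeq2 and 0 to 299 with a library left out: 0 without any 1 of the untreated libraries, 3 without the female and 299 without the male labelled -/- library under IMQ, and 5 without the female IMQ control. The block changed no call of a member, and DESeq2 made the only calls of members, 1 in the core and 2 in the cap under IMQ. For the difference of genotype effects DESeq2 called 99 genes against 0 in limma, and its cap median was 0.25. With a library left out, the genotype medians under IMQ spanned 0.18 to 0.35 in the core and 0.17 to 0.28 in the cap, and the medians of the difference 0.13 to 0.32 in the core and 0.12 to 0.26 in the cap. The IMQ medians then spanned 0.96 to 1.05 (core) and 0.82 to 0.93 (cap) in the labelled -/- mice, and 0.69 to 0.81 and 0.61 to 0.70 in the controls. In the labelled -/- mice they were 0.88 and 0.75 without TMM factors, 0.94 and 0.84 with 5 CPM added and 0.69 and 0.57 in the deposited values as they stand, where the controls had 0.52 and 0.39.

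Among single members some values changed sign, most of them near 0 but also Psmb10 under IMQ, which was -0.43 with all libraries; the cause was not tested. Untreated Psmb5 was at -0.018 with TMM scaling, -0.020 in edgeR, -0.021 in edgeR with the block and -0.013 in DESeq2, and Psmd9 under IMQ at 0.0069 in DESeq2. With a library left out, untreated values spanned -0.23 to 0.33 for Psmb10, -0.028 to 0.042 for Psmb5, -0.046 to 0.026 for Psmb6, -0.13 to 0.051 for Psmd14, -0.31 to 0.048 for Psmd8 and -0.25 to 0.038 for Psmd9. Under IMQ they spanned -0.86 to 0.0059 for Psmb10, -0.22 to 0.060 for Psmd8 and -0.075 to 0.019 for Psmd9. Over the named members, 638 values under the alternatives kept their direction and their side of the threshold or moved by less than 1 SD, while 34 moved by more, 19 changed sign and 2 came past the threshold. Where a group lost a library, the lone one was assumed to vary like the others. Each group had 2 libraries, which limits the precision, and how much counting error adds to the spread was not tested.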
